A study of Homo sapiens with 10 samples.

Results

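MYC, PVT1, TERT, RB1, CDKN2A, CDKN2B and BRCA1 are growth-control genes at which insulators or other regulatory sites bound by CTCF have been described, and CTCF and histone-mark peaks were listed here in the gene body of each plus 20 kb on both sides. These 7 genes were taken by name out of 20034 annotated genes that could be examined in the same way, namely all protein-coding genes and the non-coding gene PVT1. CDKN2A and CDKN2B are neighbours, so the 7 genes gave 6 separate windows, which together spanned 1145 kb of the hg38 genome with gene bodies from GENCODE release 44.

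The cells were HEK-293T, a human embryonic kidney line that carries the SV40 large T antigen, and the study asked how CTCF occupancy and histone marks depend on CGGBP1, a repeat-binding zinc-finger protein. CT cells received a lentivirus with a non-targeting shRNA, KD cells one that silences CGGBP1 and OE cells one that overexpresses it. CTCF ChIP-seq was done in CT, KD and OE, and ChIP-seq of H3K4me3, H3K9me3 and H3K27me3 was done in CT and KD, with 1 input library whose cells the labels do not tie to a condition. All libraries were made with no barcodes. CT and KD cells shared puromycin selection. There was 1 library per condition, so no difference between CT, KD and OE has a replicate check, and no test or p-value is given. The deposited lists hold only start and end positions and not the reads behind a peak, and a missing peak means that the site did not pass the caller's threshold in that library. The silencing and overexpression of CGGBP1 could not be checked from peak lists. H3K4me3 peaks lay within 1 kb of a transcript start of 7 of 7 genes chosen as markers of HEK-293T in both CT and KD, and of 2 of 6 chosen for other cell types.

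CTCF is a zinc-finger protein that binds a long GC-rich motif, halts the cohesin ring that extrudes chromatin loops, and can block contact between an enhancer and a promoter or the spread of heterochromatin. H3K4me3 marks active promoters, H3K27me3 is the mark of Polycomb repression and H3K9me3 that of heterochromatin. MYC drives transcription for growth, PVT1 is a long non-coding RNA gene next to it, TERT is the catalytic subunit of telomerase, RB1 holds back E2F factors, CDKN2A encodes p16INK4a and p14ARF, CDKN2B encodes p15INK4b, and BRCA1 acts in homologous recombination.

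The sequences under the CTCF peaks that the comparisons below turn on are shown for the tumour suppressor genes, from the hg38 reference and read 5′ to 3′ on the strand of the motif. In each, capitals mark the best match to a CTCF matrix of 14 columns learned from CTCF peaks of these cells, with 20 bases of context on both sides. Sites listed in CT, KD and OE are shown first (RB1 intron 2 at chr13:48334699-48334752, plus strand, and the RB1 3′ side at chr13:48595787-48595840, plus strand). The RB1 3′ side here lies past the end of the canonical transcript, within the longer GENCODE gene. Next are sites listed in KD and OE (RB1 3′ side at chr13:48580363-48580416, minus strand, and the BRCA1 downstream flank at chr17:43024549-43024602, plus strand) and in CT and KD (BRCA1 upstream flank at chr17:43172343-43172396, plus strand). The last are the CDKN2B sites listed in CT only (chr9:22008741-22008794, minus strand) and in OE only (chr9:22009568-22009621, plus strand).
RB1 intron 2, CT and KD and OE: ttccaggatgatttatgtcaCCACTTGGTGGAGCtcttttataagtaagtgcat
RB1 3′ side, CT and KD and OE: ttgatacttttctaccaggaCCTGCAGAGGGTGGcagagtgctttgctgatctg
RB1 3′ side, KD and OE: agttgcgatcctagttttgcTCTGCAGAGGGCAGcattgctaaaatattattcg
BRCA1 downstream flank, KD and OE: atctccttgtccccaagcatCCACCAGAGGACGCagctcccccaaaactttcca
BRCA1 upstream flank, CT and KD: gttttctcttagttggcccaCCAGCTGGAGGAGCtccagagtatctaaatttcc
CDKN2B inside the gene, CT: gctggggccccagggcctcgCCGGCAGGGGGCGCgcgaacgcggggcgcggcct
CDKN2B upstream, OE: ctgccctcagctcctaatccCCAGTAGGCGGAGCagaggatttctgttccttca

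CTCF peaks were listed in the windows of most of the genes, with the same number of genes in CT and OE and fewer in KD. Counted once where windows overlap, CT had 12 CTCF peaks in the windows, KD had 11 and OE had 14. Per 100 kb the CT value was 1.05, the KD value 0.961 and the OE value 1.22, below the 1.42, 1.57 and 1.57 of the whole genome. At least 1 peak lay in the windows of 6 of the 7 genes in CT, against 73.9% of all protein-coding genes. In KD 4 of the 7 genes had one, against 81.1%. In OE 6 of the 7 had one, against 78.5%. TERT had none in any library, and CDKN2A and CDKN2B had none in KD. A peak in CT and none in KD was thus found for 2 of the 7, whose windows overlap, against 6.29% of all genes. The windows differ in length, from 46.4 kb for CDKN2B to 433 kb for PVT1, and a longer window has more room for a peak.

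**Figure D1:**
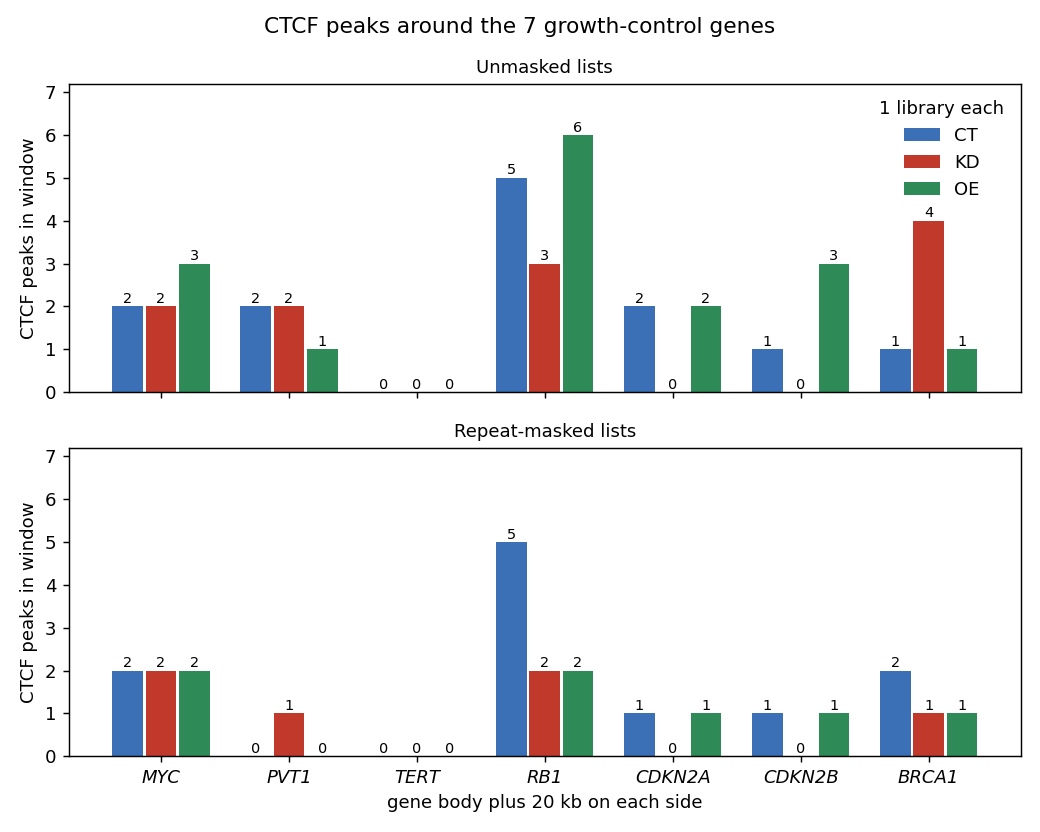
CTCF peaks (y axis, number) in the gene body plus 20 kb on both sides of each of the 7 genes (x axis) in the CT, KD and OE libraries, 1 library each, from unmasked lists (top) and repeat-masked lists (bottom). RB1 held 5, 3 and 6 unmasked peaks in CT, KD and OE, TERT held none, and CDKN2A and CDKN2B held none in KD in either kind of list.

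The repeat-masked lists, which the authors made from alignments to a genome with repeats masked, held 10 window peaks for CT and 6 each for KD and OE. At least 1 masked peak was listed for 5 of the 7 genes in CT, against 65.2% of all protein-coding genes, for 4 in KD, against 67.2%, and for 5 in OE, against 62%. Peaks at a promoter, within 1 kb of any annotated transcript start, were fewer. CDKN2B alone had an unmasked CTCF peak there in CT and in OE, which made 1 of 7 genes in each, against 14.6% of protein-coding genes in CT and 18.8% in OE. In KD the 1 of 7 was BRCA1, at an annotated start far upstream of its canonical transcript, against 20.6% of all genes.

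Merging the overlapping peaks of the unmasked lists gave 26 CTCF sites in the windows. All of CT, KD and OE listed 4 of them, against 21.6% of 83061 sites in the genome. Only 1 library listed 19 of the 26, against 60.6% in the genome, with 7 in CT only, 4 in KD only and 8 in OE only. The CTCF motif, at a matrix match of p below 0.0001, lay under 13 of the 26 sites, against 45.2% of all sites.

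Sites listed by more than 1 library and sites listed by 1 library differed in what lay under them. Each of the 7 sites listed by more than 1 library had a motif and a peak in at least 1 repeat-masked list, and their repeated bases reached at most 29.9%. Bases were counted as repeated where they fall in 24-base words found at least 10 times in the reference. Of the 19 sites in 1 library only, 6 had a motif, 5 had a masked peak and 8 had either. Repeated sequence made up more than 40% of 5 of these 19 sites, and none of those 5 had a masked peak. Masking repeats before alignment makes a masked peak unlikely at such sites, so its absence there says little about them. Over the genome, 82.4% of the sites in CT, KD and OE had a motif, against 15.2% of those in CT only, 40.2% in KD only and 17.8% in OE only. The matrix was learned from masked CT peaks that overlap KD and OE peaks. It can therefore favour sites shared by libraries, in the windows and over the genome. Of the 26 sites, 7 overlapped an H3K4me3 peak of CT or KD, and 0 overlapped an H3K9me3 or H3K27me3 peak. The KD site at BRCA1 exon 7 is among the 7 only through a narrow exon peak of CT, described below, whose source is not known. The share of all sites in the genome under these marks was not counted, so these counts have no background beside them.

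**Figure D2:**
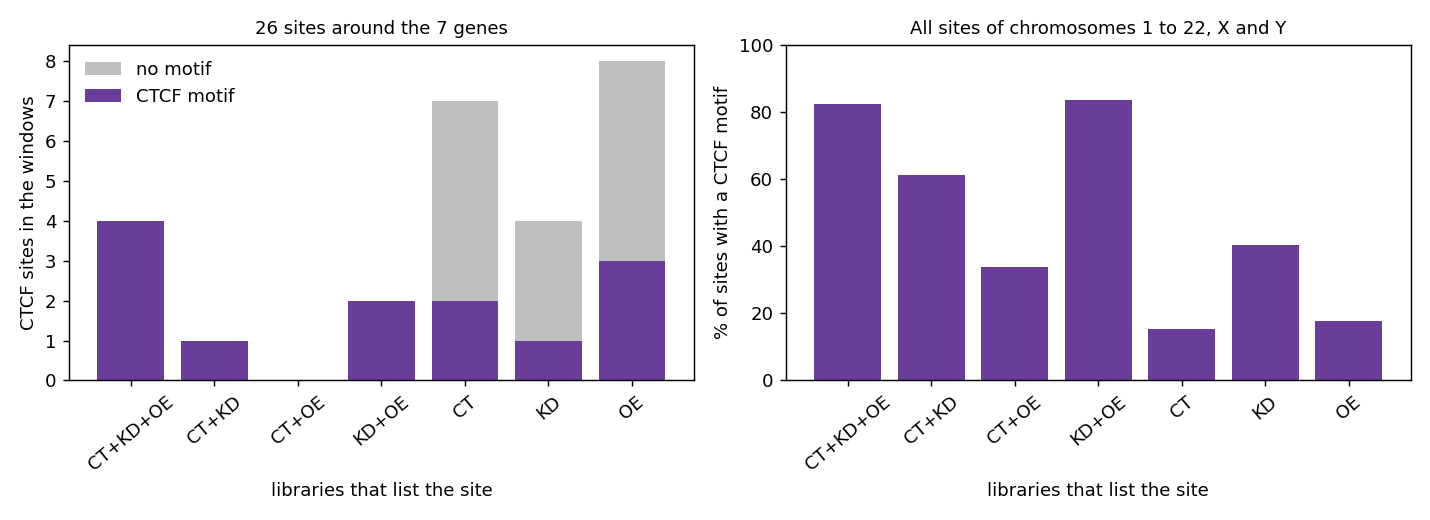
Left, the 26 CTCF sites around the 7 genes (y axis, number) by the libraries that list them (x axis), with sites that hold a CTCF motif in purple and the others in grey. Right, the percent of all sites in the genome with a motif for the same classes. The 7 sites shared by libraries in the windows all hold a motif, as do 6 of the 19 listed by 1 library. The motif matrix was itself learned from masked peaks shared by CT, KD and OE.

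MYC had CTCF peaks at the same places on its 5′ side in CT, KD and OE. The gene lies at chr8:127735434-127742951 on the plus strand, and distances are given here from the start of the canonical transcript of each gene to the middle of a site. The nearer site, chr8:127733978-127734358, was centred 2.06 kb upstream of that start, with widths of 311, 381 and 270 bp in CT, KD and OE. It held 3 motif matches and 20 CpG dinucleotides, and it was listed in all 3 masked lists at 231, 294 and 240 bp. The farther site, chr8:127725726-127726120, was centred 10.3 kb upstream, with widths of 270, 282 and 353 bp in CT, KD and OE and a peak in each masked list. Both overlapped H3K4me3 peaks of CT and of KD, and both lie within CASC11, a non-coding gene. At the nearer site the overlap was only at the edge towards MYC, where H3K4me3 began at position 127734274 in CT and 127734267 in KD. The CTCF peak of OE there ended at 127734252, before either. One further site was in OE only, 6988 bp downstream of the start at chr8:127743103-127743335, with 1 weak motif match and no masked peak.

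The H3K4me3 peaks of CT and KD around MYC covered mostly the same bases. CT listed 6 peaks and KD listed 5, and 87.5% of the bases under either were under both. Within 1 kb of the canonical start, which is a stretch of 2001 bp, peaks covered 1466 bp in CT and 1544 bp in KD. The widest, just inside the gene, was 1229 bp in CT and 1294 bp in KD. Upstream peaks were 304, 865 and 584 bp wide in CT and 342, 785 and 624 bp in KD, and a region farther into the gene had CT peaks of 669 and 236 bp and 1 KD peak of 1099 bp. Neither H3K9me3 nor H3K27me3 was listed in the MYC window.

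PVT1, at chr8:127794526-128187101 on the plus strand, had CTCF peaks in single libraries only. CT listed sites in intron 6 and intron 10, at 319 kb and 378 kb from the start. KD listed sites in intron 2, at 23.8 kb, and in intron 6, at 335 kb. OE listed 1 site in intron 2, at 12.5 kb. Of these 5 sites, the KD site of intron 2, chr8:127818151-127818514, was the one with a masked peak, and it held 2 motif matches. No PVT1 site overlapped another library's site, so the equal counts of 2 in CT and in KD came from different places.

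The PVT1 start carried H3K4me3 in both conditions, in 1 CT peak of 2106 bp and in KD peaks of 243, 1608 and 374 bp. Within 1 kb of the canonical start the covered length was 928 bp in CT and 1202 bp in KD. Over the whole window CT had 7 H3K4me3 peaks and KD 12, and 51% of the bases under either were under both. The KD list added peaks of 187 to 408 bp centred 56884, 57400, 175474 and 176574 bp into the gene, where CT had none. CT listed 2 H3K9me3 peaks of 161 bp inside the gene, 1 of them within an H3K4me3 peak of CT, and KD listed 1 of 157 bp in the upstream flank. CT also listed 1 H3K27me3 peak of 150 bp, inside the H3K4me3 peak at the start.

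TERT, at chr5:1253147-1295068 on the minus strand, was the gene with no CTCF peak in its window in any of the 6 CTCF lists. Its window was the most GC-rich of the 7, at 55.5%, and held 182 matches to the CTCF matrix, 13 of them at p below 0.00001, none under a peak. Most matches elsewhere also lay outside peaks. Over all windows 24 of 922 matches, and 9 of 121 at p below 0.00001, were under a CTCF site. From the TERT start the nearest unmasked peak was 120 kb away in CT and in KD, and 68.6 kb away in OE, on the downstream side. The nearest masked peak was 120 kb away in all 3. H3K4me3 was listed as 1 narrow peak just inside the gene in each condition, 253 bp wide in CT and 372 bp in KD, and 37.4% of the bases under either were under both. No H3K9me3 or H3K27me3 peak was listed there.

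RB1 had the most CTCF sites of the 7 genes, 9, in a window of 336 kb. GENCODE places RB1 at chr13:48303744-48599436 on the plus strand, which runs past the end of its canonical transcript and across RCBTB2. CT listed 5 peaks, KD 3 and OE 6. The site in intron 2, chr13:48334444-48334883, whose motif is shown above, was listed in CT, KD and OE, 30.9 kb from the start, with widths of 408, 207 and 246 bp. It was in all 3 masked lists too, at 455, 166 and 223 bp. Its GC content was 31.4% and it held no repeated bases, and the motif match stood in AT-rich sequence.

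On the 3′ side, 292 kb from the RB1 start, the site chr13:48595683-48596028 was 300 bp wide in CT, 303 in KD and 298 in OE and held 4 motif matches. Its masked peak was in CT only. A neighbouring site, chr13:48580128-48580676 at 277 kb, was listed in KD and OE at 461 and 404 bp, with masked peaks in both, and in neither list of CT. It lies in LINC00462. Both of these sites lie past the end of the canonical transcript and past the RefSeq end of RB1, at position 48481890. They are in the window only because the GENCODE gene is longer. The 2 CT-only sites within RCBTB2, at 191 and 206 kb, had masked CT peaks and no motif match. The remaining CT-only site, in intron 2 at 10.3 kb, was 42.8% repeated sequence. The 3 OE-only sites lay in introns 17 and 23, at 118, 133 and 164 kb, with repeated bases of 97.3%, 0% and 100%, and none had a masked peak. One masked CT peak of 223 bp in intron 17 had no unmasked counterpart.

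The RB1 promoter carried H3K4me3 in both conditions. CT listed it as 2 peaks of 643 and 1102 bp on either side of the start, and KD as 1 peak of 2144 bp across it. Covered length within 1 kb of the start was 1247 bp in CT and 1662 bp in KD. Each condition had 4 H3K4me3 peaks in the window, with 78.5% of the bases under either being under both. Peaks centred 229148 bp from the start in CT (1437 bp wide) and 229145 bp in KD (1548 bp), and peaks in the downstream flank of 659 and 667 bp, were in both lists. The peaks of 1437 and 1548 bp lie past the canonical RB1 transcript, at a transcript start of RCBTB2. KD added a 290-bp peak 162 kb into the gene that CT did not list. CT listed 2 H3K9me3 peaks of 161 bp in the gene body, KD none, and H3K27me3 was listed in neither.

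At CDKN2A and CDKN2B, chr9:21967752-21995301 and chr9:22002903-22009305 on the minus strand, CT and OE listed CTCF on opposite sides of the CDKN2B start and KD listed none. The CT peak, chr9:22008449-22008892, was 444 bp wide, centred 634 bp inside CDKN2B across the end of exon 1 and into intron 1. It held 33 CpG dinucleotides, the most of the 26 sites, 2 motif matches and a masked CT peak of 349 bp. The OE peak, chr9:22009491-22009804, was 314 bp wide, centred 0.343 kb upstream of the start, with 1 motif match and a masked OE peak of 189 bp. Each lay in sequence with no repeated bases and overlapped H3K4me3 peaks of CT and KD. The 2 motif matches shown above for these sites are therefore different ones, on opposite strands. From the CDKN2B start the nearest KD peak was 28.8 kb away in the unmasked list and 110 kb away in the masked list.

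The other CTCF peaks of this locus had no motif match and no masked peak. They were a CT peak within the annotated CDKN2A gene, which was 62.1% repeated, and OE peaks at 5.75 and 14.7 kb upstream of CDKN2B, which were 100% and 30% repeated. From the canonical CDKN2A start the nearest KD peak was 63.3 kb away.

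H3K4me3 was broad at CDKN2A and CDKN2B in both conditions. Peaks covered all 2001 bp around the canonical CDKN2A start in CT and in KD, in peaks of 2404 and 2314 bp. Farther upstream CT had peaks of 1245, 1435, 933 and 1141 bp, and KD had peaks of 519, 467, 1198 and 2255 bp over the same stretch. Some of these lie at other transcript starts. The place of the 1435-bp CT and 1198-bp KD peaks holds a start of CDKN2B-AS1. That of the 933-bp and 1141-bp CT peaks and the 2255-bp KD peak holds starts of CDKN2A and CDKN2B-AS1. No start lies under the 1245-bp CT peak. Around the CDKN2B start they covered 1276 bp in CT and 1260 bp in KD. Of the bases under either condition's peaks, 88.4% in the CDKN2A window and 86.3% in the CDKN2B window were under both. The H3K4me3 peaks that overlap the CT and OE sites of CTCF were thus listed in KD too, where no CTCF peak was. CT listed 1 H3K9me3 peak of 161 bp between the genes, KD listed none, and H3K27me3 was listed in neither.

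**Figure D3:**
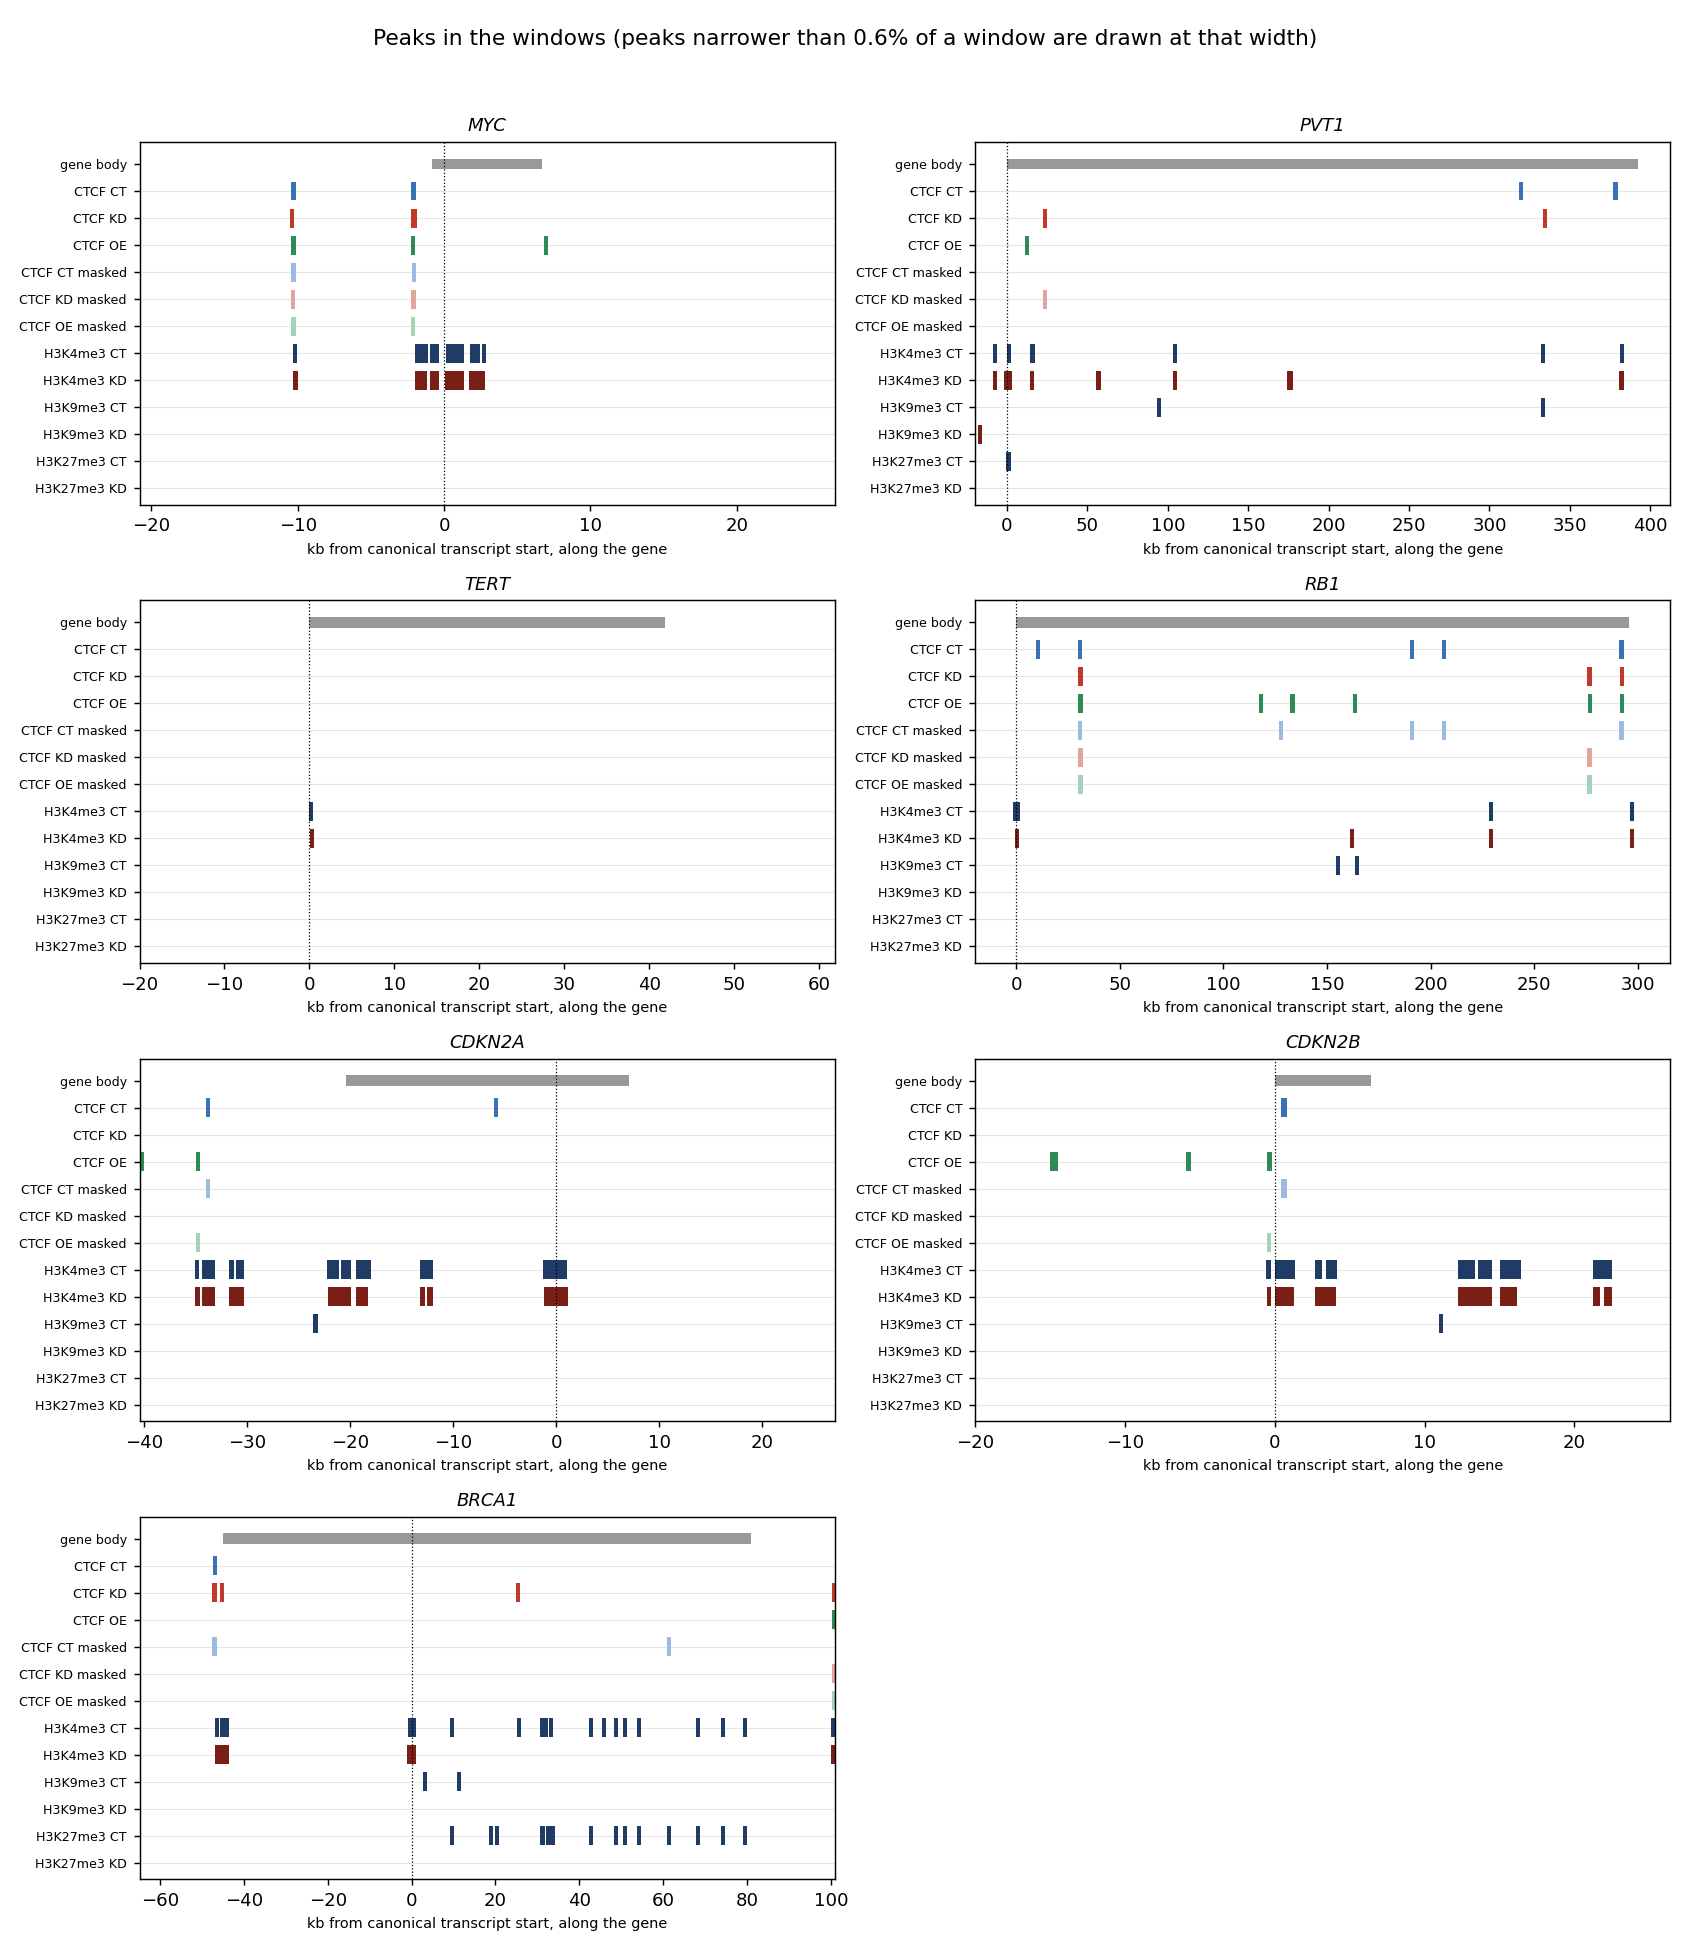
Peaks in the window of each of the 7 genes, drawn in kb from the canonical transcript start and oriented along the gene (x axis), with 1 line for each list (y axis) and the gene body in grey. CTCF lines of MYC hold the same 2 places in CT, KD and OE. Those of RB1 share intron 2 and a place on the 3′ side, past the end of the canonical transcript. Those of CDKN2A and CDKN2B are empty in KD, and TERT has no CTCF peak.

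**Figure D4:**
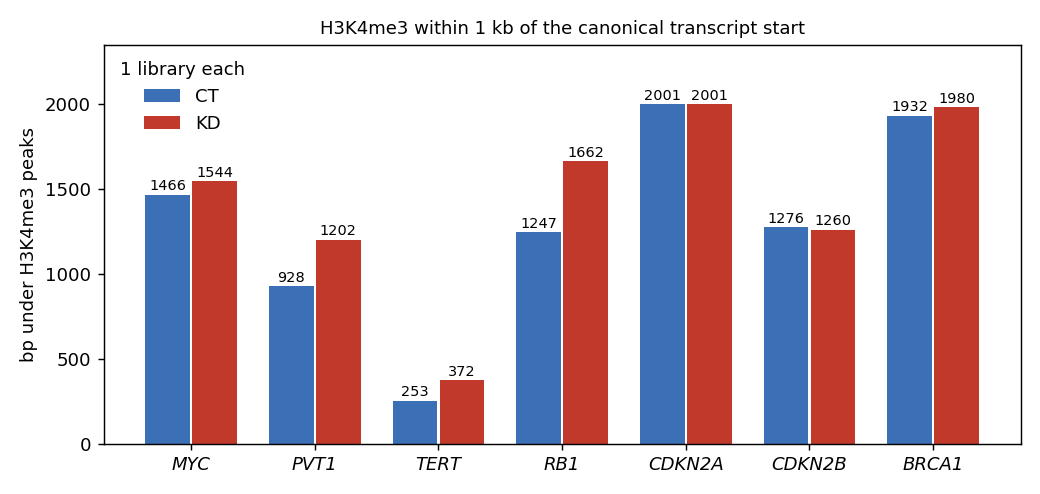
Length under H3K4me3 peaks (y axis, bp) within 1 kb of the canonical start of each gene, a stretch of 2001 bp, in CT and KD, 1 library each. Values run from 253 bp in CT and 372 bp in KD at TERT to 2001 bp in both at CDKN2A.

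Across the 7 genes an H3K4me3 peak lay within 1 kb of a transcript start in 7 of 7 in CT, against 73.4% of all protein-coding genes, and in 7 of 7 in KD, against 74.1%. For H3K4me3, CT had 43 peaks in the windows and KD had 33, or 3.75 and 2.88 per 100 kb against 2.52 and 2.69 in the genome. Merged, they gave 44 sites, of which 24 were in both conditions, against 70.3% of 87545 sites in the genome. Of the 14 sites in CT only, 12 were in the BRCA1 window. These include the narrow exon peaks described next, whose source is not known. Without the BRCA1 window CT had 27 peaks and KD 30, and 21 of 29 sites were in both conditions, 2 in CT only and 6 in KD only.

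BRCA1, at chr17:43044295-43170245 on the minus strand, had CTCF peaks at the ends of its window and H3K4me3 at its promoter in both conditions. The annotated gene reaches from the canonical start at position 43125364 to close to the start of NBR1 upstream. KD listed 4 CTCF peaks, CT 1 and OE 1. The upstream site in NBR1, chr17:43172223-43172478, was 235 bp wide in CT and 199 bp in KD, and had a masked peak in CT. The downstream site in VAT1, chr17:43024426-43024712, was 287 bp wide in KD and 275 bp in OE, with masked peaks in both and an H3K4me3 peak over it. The other KD sites, of 294 bp at exon 7 and 216 bp at the NBR1 start, had neither a motif match nor a masked peak. Within 1 kb of the canonical start H3K4me3 covered 1932 bp in CT and 1980 bp in KD.

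Inside BRCA1, CT listed many narrow H3K4me3 and H3K27me3 peaks on exons that KD did not list. Of 13 H3K4me3 peaks of CT in the canonical transcript, 12 touched an exon, and of 14 H3K27me3 peaks of CT, 14 did. They fell on 11 and 12 of the 23 exons, 9 of which had both marks, 14 either and 9 neither. Exon 10, the long exon of 3426 bp, carried H3K4me3 peaks of 2078 and 1076 bp and H3K27me3 peaks of 1271, 1251 and 321 bp. Short exons carried peaks wider than themselves. Exon 12, of 172 bp, had an H3K4me3 peak of 214 bp and an H3K27me3 peak of 235 bp, both starting at position 43082374, and exon 3, of 54 bp, had peaks of 209 and 223 bp. In all, H3K4me3 peaks of CT covered 63.1% of exon bases and 2.68% of intron bases, and H3K27me3 peaks 59.2% and 1.36%, where exons make up 8.74% of the transcript. In KD, H3K4me3 touched 1 exon, at the promoter, and H3K27me3 none. That promoter peak of KD, 2036 bp wide, covered 1.33% of exon bases and 1.3% of intron bases. Its CT counterpart, 2013 bp wide, is included in the H3K4me3 counts and percentages of CT given here. The 2 H3K9me3 peaks of CT lay in introns, and the input had no peak in the window. A masked CTCF peak of CT, 211 bp wide at exon 17, overlapped 64 bp of that exon and had no unmasked counterpart.

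**Figure D5:**
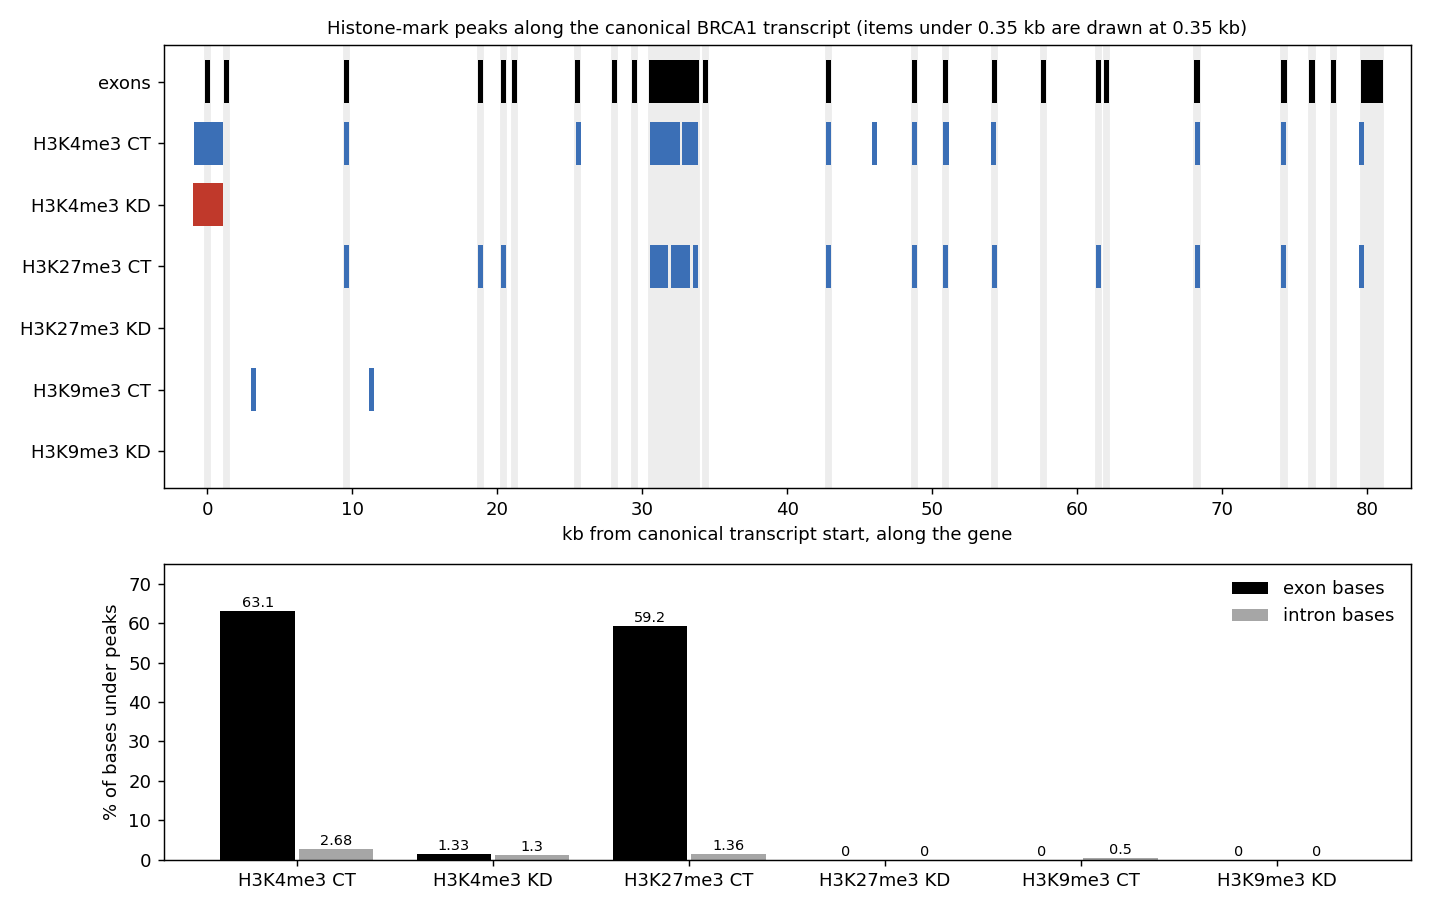
Top, exons of the canonical BRCA1 transcript (black, with grey bands) and peaks of H3K4me3, H3K27me3 and H3K9me3 in CT (blue) and KD (red), in kb from the transcript start (x axis). Bottom, percent of exon bases (black) and intron bases (grey) under the peaks of each list (y axis), with 63.1% of exon bases under H3K4me3 and 59.2% under H3K27me3 in CT.

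This exon pattern was rare among genes, and the following genes were looked up after the BRCA1 values were seen. Among 8121 protein-coding genes with at least 10 exons, 12 (0.148%) had at least 0.5 of their exons under an H3K27me3 peak of CT, BRCA1 included, and 20 (0.246%) under an H3K4me3 peak of CT. Of these, 11 genes were in both groups. Beside BRCA1 they included ATM, BARD1, BRCA2, BRIP1, CDH1, CHEK2, NBN, PALB2, RAD50 and ENSG00000283782, which overlaps RAD50 on the same strand. Nearly all of those named are known as breast and ovarian cancer predisposition or DNA repair genes. ATM had H3K27me3 peaks of CT on 50 of 63 exons and H3K4me3 peaks of CT on 47. CDH1, the E-cadherin gene, had both on 14 of 16 exons. BRCA2 had them on 17 and 21 of 27 exons. In KD none of the 12 had an H3K27me3 peak on an exon, and H3K4me3 lay on at most 2 exons of each. Neither the input list nor either H3K9me3 list had a peak on an exon of these genes. The libraries carried no barcodes, and the lists cannot tell whether the DNA behind these exon peaks came from chromatin carrying the marks or from another source of exon DNA, which was not tested. The exon peaks of CT are therefore not read here as H3K4me3 or H3K27me3 of BRCA1.

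Apart from the BRCA1 exon peaks, the H3K9me3 and H3K27me3 peaks around the 7 genes were few in number. H3K9me3 was listed in the windows of 5 of 7 genes in CT, against 28% of protein-coding genes, and of 1 of 7 in KD, against 13%. The windows held 7 H3K9me3 peaks in CT and 1 in KD, and the whole lists held 14546 and 8356. Per 100 kb the windows had 0.611 in CT and 0.0873 in KD, against 0.482 and 0.273 in the genome. CDKN2A and CDKN2B were both counted in CT for the same peak, which lies in both windows. H3K27me3 was listed for 2 of 7 genes in CT, BRCA1 and PVT1, against 5.55%, and for 0 of 7 in KD, against 3.6%. Of the 15 H3K27me3 peaks of CT in the windows, 14 were those on BRCA1 exons, with the same doubt about their source. The labels and the study's methods give the H3K9me3 and H3K27me3 antibodies the other way round, so which antibody belongs to which of these lists cannot be told apart here.

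The wider pathways of these genes were described with 46 genes, among them genes of the cell cycle and RB pathway, the MYC network, telomerase and telomere proteins, and homologous recombination. A CTCF peak lay in the windows of 35 of the 46 in CT, 41 in KD and 42 in OE, where 73.9%, 81.1% and 78.5% of all protein-coding genes had one. At promoters the counts were 10, 11 and 10, where all genes had 14.6%, 20.6% and 18.8%. H3K4me3 lay at the promoters of 46 in CT and 46 in KD, where all genes had 73.4% and 74.1%. A window peak of CTCF in CT and none in KD was found for 3 of the 46, against 6.29% of all genes, and the reverse for 9, against 13.5%. In list order, the first 6 are named, and E2F1 and CCNE1 had 1 peak in CT and 0 in KD, while E2F3, E2F4, E2F5 and CCNE2 had 0 in CT and 3, 2, 1 and 2 in KD. The E2F genes encode transcription factors held back by RB1 and its relatives, and CCNE1 and CCNE2 are the E cyclins of entry into S phase. H3K9me3 was in the windows of 10 of the 46 in CT and 6 in KD, against 28% and 13% of all genes, and H3K27me3 in 10 and 1, against 5.55% and 3.6%. Among the 7 homologous recombination genes, H3K27me3 of CT was in the windows of 5, with 19 peaks at BRCA2, 15 at BRIP1, 10 at PALB2, 9 at RAD51C and 7 at BARD1, and 0 in KD at each. BRCA2, BRIP1, PALB2 and BARD1 are among the genes with exon peaks above, so their counts share that doubt.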

How the data were processed

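ChIP-seq peak lists of CTCF (CT, KD, OE), H3K4me3, H3K9me3 and H3K27me3 (CT, KD) and 1 input, 1 library each, were used. Their values are peak start and end positions in hg38, with no counts, heights or scores: according to the submitters' processing notes the authors aligned reads with Bowtie2, called peaks with MACS2 and used bedtools. The labels give p thresholds of 0.0025 for unmasked CTCF in CT and KD, 0.005 in OE and 0.001 for masked CTCF and histone lists. The methods give 0.005 for all unmasked reads, so the CTCF lists may differ in stringency. Starts were read as counted from 0. Deposited lists of peaks exclusive to a condition are the authors' own comparisons and were not used.

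Windows were gene bodies (GENCODE release 44) plus 20 kb. An overlap of 1 bp counted. CTCF peaks were merged into sites. Promoters were 1 kb on both sides of every transcript start. Motifs were scored with a matrix learned over 7 rounds from 12859 masked CT peaks that overlap KD and OE peaks, on both strands. The matrix was thus learned from some of the peaks it describes. Repeated bases fall in 24-mers found at least 10 times in the reference. Python 3.11.15, numpy 2.4.6 and pysam 0.24.0 were used, and the helpers were tested on simulated data. The genes, lists and settings were chosen with earlier results of these data known. The 7 genes are named with their CTCF and histone peaks, some of the narrower histone peaks in the map of peaks only, and pathway genes are named in list order, at most 6 per measure, where 1 library has peaks and another none. The exon comparison was added after its values were seen. Alternatives varied the flank, promoter width, overlap, motif threshold, list and width of peaks. Some genes and 1 sequence are not reported here.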

Additional observations from a re-analysis of the deposited data

How the results depend on the processing

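With 1 library per condition nothing could be left out, and no paired analysis was possible because each condition has 1 library and the results come from no test. Of 79 alternative values, 64 stayed within 1.5 times the reported one. With 50-kb flanks the windows held 19 unmasked CTCF peaks in CT in place of 12. From the repeat-masked lists the windows gave 14 sites in place of 26, with 9 in 1 library only, 1 in KD only and 1 in OE only. Among the widest 20000 peaks of each list there were 15 sites, with 0 in CT, KD and OE, 12 in 1 library only, 4 in CT only and 1 in KD only, so none of the 4 shared sites was among them in every library. A motif lay under 8 sites at p below 0.00001 and under 3 with the 12-position core consensus of the CTCF motif and at most 1 mismatch, in place of 13. At the outermost start of each gene alone, H3K4me3 covered 8228 bp in CT and 9351 bp in KD, in place of 18319 and 19067 bp over all starts. With 10-kb flanks KD had 0 H3K9me3 peaks in place of 1. RefSeq gene bodies, chosen after seeing the data, moved no value by more than 1.5 times. The lists carry no read numbers, and library depth was not set beside missing peaks here.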
